A study of Mus musculus with 19 samples.

Results

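The transcripts examined here encode the proteases that release amyloid-beta from its precursor and the proteases that break it down. The set held 10 genes of the 25603 tested: the beta-secretases Bace1 and Bace2, the gamma-secretase subunits Psen2, Ncstn, Aph1a and Psenen, the alpha-secretase Adam10, and the degrading proteases Mme, Ide and Ece1. Members were the probes whose transcript identifier mapped to a RefSeq transcript of these genes. Hippocampal RNA from 19 mice aged 8 months was hybridised to mouse expression arrays, 1 array per mouse. APP/PS1 mice gavaged with urolithin A in DMSO at 200 mg/kg per day between 6 and 8 months of age gave 6 arrays, APP/PS1 mice gavaged with DMSO alone gave 7 arrays, and wild-type (WT) littermates gavaged with DMSO gave 6 arrays. All 3 groups therefore received the DMSO vehicle, and both APP/PS1 groups carried the transgenes. Urolithin A is a gut-microbial metabolite of ellagitannins used to induce mitophagy. The APP/PS1 strain carries transgenes, among them a chimeric mouse and human amyloid precursor protein, under a prion promoter that drives expression mainly in the central nervous system.

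Amyloid-beta is made when beta-secretase cuts the amyloid precursor protein outside the membrane and gamma-secretase cuts the remaining stub within it. Alpha-secretase cuts inside the amyloid-beta stretch and so prevents its release. Neprilysin (Mme), insulin-degrading enzyme (Ide) and endothelin-converting enzyme 1 (Ece1) are metalloproteases that degrade the peptide and also inactivate or process several peptide hormones and neuropeptides.

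The upstream sequences of 2 members are shown. Mme was the degrading protease with a limma adjusted p under 0.05 between genotypes, a call that rested on 1 probe and failed in most alternative settings. Aph1a was the member with the lowest adjusted p-value after Mme in the treatment comparison, where neither passed. Both sequences are the 250 bases before the first annotated start in RefSeq (GRCm38.p6), on the plus strand, 5′ to 3′. Capitals mark matches on either strand to the GC box GGGCGG or the CCAAT box CCAAT. The Mme window is chr3:63294961-63295210 and the Aph1a window is chr3:95893671-95893920.
Mme: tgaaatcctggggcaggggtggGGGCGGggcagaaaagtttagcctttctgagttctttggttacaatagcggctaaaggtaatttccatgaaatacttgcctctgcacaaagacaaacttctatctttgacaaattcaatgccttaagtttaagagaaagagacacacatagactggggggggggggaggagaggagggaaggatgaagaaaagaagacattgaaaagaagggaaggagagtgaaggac
Aph1a: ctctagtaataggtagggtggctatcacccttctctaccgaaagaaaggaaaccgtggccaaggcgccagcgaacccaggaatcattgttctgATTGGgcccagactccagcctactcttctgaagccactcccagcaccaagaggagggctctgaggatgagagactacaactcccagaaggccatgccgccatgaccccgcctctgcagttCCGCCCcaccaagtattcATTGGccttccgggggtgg
The Mme window had 45.6% G and C and held 1 GC box, beginning 228 bases upstream of the start. Mme has further listed starts, and the windows of starts 2 and 3, not printed here, were unlike the first. They had 73.2% and 73.6% G and C, 2 GC boxes each, and 2 and 1 CCAAT boxes. The Aph1a window had 57.2% G and C and held 1 GC box and 2 CCAAT boxes. Windows were found for 8 of the 10 members. In their first windows the GC box was present in 4 members and the CCAAT box in 5. Of 32536 distinct windows of the same length over all genes, 33.0% and 33.8% held these letters. Those windows cover every listed start of a gene and not only the first, so the 2 sets are unlike. TATAAA was found in 0 of the 8 first windows and in 12.3% of all windows. These matches describe letters in the windows, and no binding was measured.

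A level below is the log2 of the background-corrected green intensity minus the 75th percentile of the same array. Of 22 member probes, 21 were kept because they were well above background, the feature extraction software's call, on at least 6 arrays. The probe left out was 1 of the 2 for Ece1. The brightest kept probe stood for each gene, and for all 10 members it was well above background on all 19 arrays and saturated on none. The arrays' 75th percentile intensity ran between 450 and 1199, and 51.4% to 59.4% of probes per array were well above background. Arrays lay on 3 slides. Slide 1 held all 6 WT arrays and 2 APP/PS1 vehicle arrays, slide 2 held 3 urolithin A and 5 APP/PS1 vehicle arrays, and slide 3 held 3 urolithin A arrays, so slide and group were largely confounded. By Xist and Y-linked transcripts, the female arrays numbered 1 of 6 in the urolithin A group, 3 of 7 in the APP/PS1 vehicle group and 1 of 6 in the WT group. The markers of neurons, 8 of 8, were well above background on every array. The choroid plexus list varied most, with a mean level between -3.74 and 4.17 across arrays.

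In vehicle-treated APP/PS1 mice, 2 members were lower than in WT littermates, Bace1 by 1.22-fold and Mme by 1.47-fold, and no member was higher at an adjusted p under 0.05. Over all genes tested, 5.06% passed that threshold in this comparison, 2.38% of all genes tested being lower and 2.68% higher. Between urolithin A and vehicle in APP/PS1 mice no member passed, and neither did any other gene tested (0%). Between urolithin A-treated APP/PS1 mice and WT littermates no member passed either, where 0.0937% of genes did. Differences were below 0 for 8 of 10 members in vehicle-treated APP/PS1 mice against WT, with a median of -0.12 against 0.0025 over all genes. At an unadjusted p under 0.05 there were 5 members in that comparison, 4 lower and 1 higher, where 24% of all genes met the same rule, 12.4% lower and 11.6% higher. For urolithin A against APP/PS1 vehicle the unadjusted count was 2 members, against 15.5% of all genes, and for urolithin A against WT it was 0 members, against 8.83% of genes. No member had groups without overlap in any comparison, where 2.34% of genes had in vehicle-treated APP/PS1 mice against WT, 0.879% in urolithin A against APP/PS1 vehicle and 1.05% in urolithin A against WT. The comparisons share groups: the APP/PS1 vehicle arrays enter both the genotype and the treatment comparison, so opposite signs in them are not independent.

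**Figure D1:**
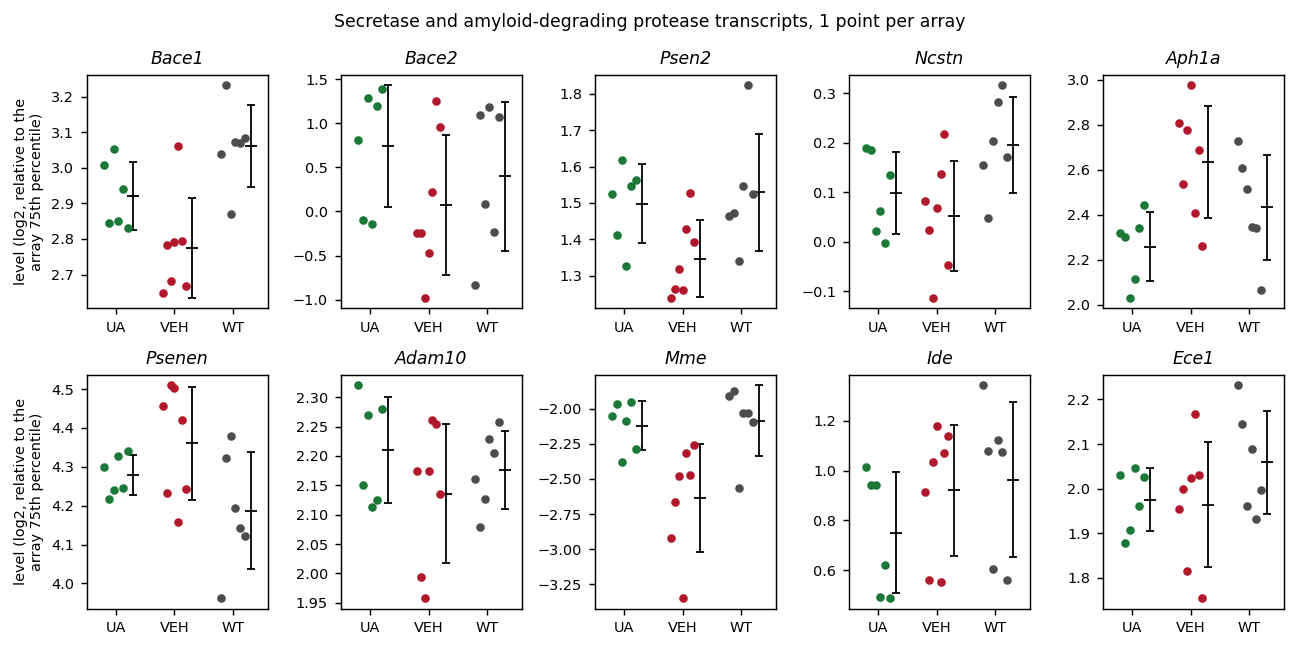
Level of each member on each array (log2, relative to the array's 75th percentile, y axis) in urolithin A-treated APP/PS1 mice (UA), vehicle-treated APP/PS1 mice (VEH) and vehicle-treated WT littermates (WT); points are arrays, and bars show the mean and SD of 6, 7 and 6 arrays, with a separate y scale for each gene. Bace1 and Mme lie lowest in VEH, all groups overlap for every member, and Bace2 has the widest scatter within groups.

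Bace1 encodes the main beta-secretase of brain and had 1 probe. Its level was 2.83 at the lowest, 2.89 at the median and 3.05 at the highest in urolithin A-treated APP/PS1 mice. Among vehicle-treated APP/PS1 mice the lowest, median and highest were 2.65, 2.78 and 3.06. In WT littermates they were 2.87, 3.07 and 3.23. All 7 vehicle-treated APP/PS1 arrays lay below the WT mean, but the groups overlapped, because array 5 of that group, at 3.06, exceeded the lowest WT array. Bace1 fell by 0.29 on the log2 scale in vehicle-treated APP/PS1 mice against WT (SE 0.074, 95% confidence interval -0.44 to -0.13, limma adjusted p = 0.0349). Between urolithin A and vehicle in APP/PS1 mice the difference was 0.15 (interval -0.01 to 0.30, adjusted p = 0.352), with 6 of 6 urolithin A arrays above the vehicle mean. Against WT the urolithin A group differed by -0.14 (interval -0.30 to 0.02, adjusted p = 0.616). On slide 1 alone, with 2 vehicle-treated APP/PS1 arrays and 6 WT arrays, the Bace1 difference was -0.35 (adjusted p = 0.167), and in male arrays it was -0.33 (adjusted p = 0.0838). Over 16 alternative settings the adjusted p of Bace1 ran between 0.0211 and 0.167. Leaving out 1 array left Bace1 called in 11 of 19 fits. The adjusted p without APP/PS1 vehicle arrays 1, 2, 6 and 7 was 0.0725, 0.057, 0.0562 and 0.0656, and without WT arrays 2, 4, 5 and 6 it was 0.0914, 0.0655, 0.0712 and 0.0828.

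Bace2 encodes the beta-secretase paralog, which cuts the precursor mostly at other positions. Its level was -0.14, 0.997 and 1.39 at the lowest, median and highest in urolithin A-treated APP/PS1 mice, against -0.98, -0.24 and 1.25 in vehicle-treated APP/PS1 mice. In WT littermates the same values were -0.84, 0.58 and 1.19. The spread within groups was large: the pooled SD was 0.781, and 95.9% of the genes tested had a lower one. The groups overlapped over most of their range. Bace2 differed by 0.67 between urolithin A and vehicle in APP/PS1 mice (interval -0.19 to 1.53, adjusted p = 0.435) and by -0.33 between vehicle-treated APP/PS1 mice and WT (interval -1.18 to 0.53, adjusted p = 0.645). An interval of this width includes both no difference and differences of over 1 log2 unit.

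The scatter of Bace2 was shared by its 2 probes. On the brightest probe 9 arrays lay at 0.80 or above and the other 10 at 0.23 or below, and the same 9 arrays were the highest on the second probe. They were 4 of 6 urolithin A arrays, 2 of 7 APP/PS1 vehicle arrays and 3 of 6 WT arrays. The second probe read between -2.17 and -1.31 on these arrays and between -4.90 and -2.73 on the others, and it was well above background on 17 arrays. The 3 female arrays of the APP/PS1 vehicle group, all on slide 2, were its 3 highest for Bace2, and also for Psen2 and Mme. In the other groups the female array was not the highest for Bace2. It read 0.80 with urolithin A, where the highest male array read 1.39, and 1.07 in WT, where the highest male array read 1.19. The mean level of the 6 meningeal markers lay between 0.61 and 1.42 on the 10 other arrays. Of the 9 arrays, 7 were above that range, at 1.45 to 2.31, counted as those that exceeded it. WT arrays 2 and 6, also among the 9, lay within it at 0.88 and 1.19. The choroid plexus list took both low and high values among the 9, with -2.34 on urolithin A array 1 and 4.17 on APP/PS1 vehicle array 7. The part of sex and of meningeal tissue in the spread was not tested.

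**Figure D2:**
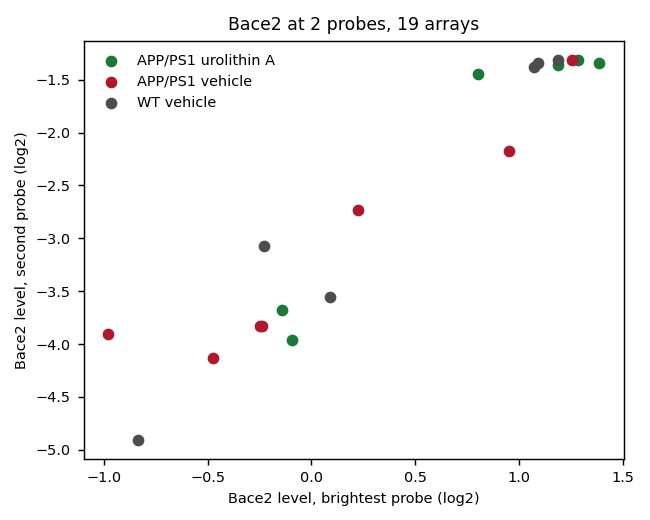
Bace2 level at its brightest probe (x axis, log2) against its second probe (y axis, log2) on 19 arrays, coloured by group. The 9 arrays at the upper right come from all 3 groups, and the same arrays are high on both probes.

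Of the gamma-secretase genes, Psen2 encodes a catalytic presenilin, Ncstn encodes nicastrin, the substrate-receiving subunit, Aph1a a scaffolding subunit, and Psenen the small subunit PEN-2 that enables maturation of presenilin. None of the 4 passed the threshold in any comparison. Aph1a had a level of 2.03, 2.31 and 2.44 at the lowest, median and highest in urolithin A-treated APP/PS1 mice. The vehicle-treated APP/PS1 values were 2.26, 2.69 and 2.98, and in WT littermates 2.07, 2.43 and 2.73. All 6 urolithin A arrays lay below the APP/PS1 vehicle mean, although the groups overlapped. The difference of urolithin A against APP/PS1 vehicle was -0.38 (SE 0.12, interval -0.63 to -0.12), a 1.30-fold lower level, with an adjusted p of 0.178.

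All 4 kept Aph1a probes were lower on average with urolithin A than with vehicle in APP/PS1 mice, by -0.38, -0.63, -0.31 and -0.12. The probe A_52_P9716, with the widest difference, read -3.25, -2.64 and -2.39 at the lowest, median and highest in urolithin A-treated APP/PS1 mice, against -2.55, -1.96 and -1.72 in vehicle-treated APP/PS1 mice. Only 1 vehicle array of that probe, at -2.55, lay within the range of the urolithin A group. Its adjusted p over all 33454 kept probes was 0.108. On slide 2 alone the brightest Aph1a probe differed by -0.40 (adjusted p = 0.904). Against WT, the brightest Aph1a probe differed by 0.20 in vehicle-treated APP/PS1 mice (adjusted p = 0.309) and by -0.18 in urolithin A-treated APP/PS1 mice (adjusted p = 0.695).

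The other 3 gamma-secretase genes varied little. Psen2 averaged 1.498 ± 0.11 with urolithin A, 1.35 ± 0.11 with vehicle in APP/PS1 mice and 1.53 ± 0.16 in WT (SD, n = 6, 7 and 6). Its difference was -0.18 for vehicle-treated APP/PS1 mice against WT (interval -0.34 to -0.02, adjusted p = 0.164) and 0.15 for urolithin A against vehicle (interval -0.01 to 0.31, adjusted p = 0.355). Ncstn, with a pooled SD of 0.0983, had 3.43% of all genes below it in spread. Its differences were -0.14 (adjusted p = 0.189) and 0.05 (adjusted p = 0.753) in the same 2 comparisons. Psenen was the member with the only positive difference at an unadjusted p under 0.05 between vehicle-treated APP/PS1 mice and WT, 0.17 (interval 0.01 to 0.33, adjusted p = 0.177). It differed by -0.08 between urolithin A and vehicle in APP/PS1 mice (adjusted p = 0.615), while its other kept probes differed by 0.04 and 0.03. Between vehicle-treated APP/PS1 mice and WT these probes differed by 0.07 and 0.13.

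Adam10 encodes the main constitutive alpha-secretase of neurons. It averaged 2.21 ± 0.09 in urolithin A-treated APP/PS1 mice, 2.14 ± 0.12 in vehicle-treated APP/PS1 mice and 2.18 ± 0.07 in WT littermates (SD, n = 6, 7 and 6). Adam10 had the smallest pooled SD of the members, 0.0959. The difference was -0.04 for vehicle-treated APP/PS1 mice against WT (interval -0.17 to 0.09) and 0.07 for urolithin A against vehicle (interval -0.06 to 0.21). Neither passed the threshold, with adjusted p = 0.721 and 0.588.

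Mme encodes neprilysin. On its brightest probe the level was -2.38, -2.07 and -1.95 at the lowest, median and highest in urolithin A-treated APP/PS1 mice. The vehicle-treated APP/PS1 values were -3.35, -2.48 and -2.26, and in WT littermates -2.56, -2.03 and -1.87. All 7 vehicle-treated APP/PS1 arrays lay below the WT mean, and the lowest WT array, array 3, lay among them. Mme fell by 0.55 on the log2 scale in vehicle-treated APP/PS1 mice against WT (SE 0.156, interval -0.88 to -0.22, adjusted p = 0.0484). The sexes differed in the vehicle-treated APP/PS1 group, with a mean of -2.85 on 4 male and -2.35 on 3 female arrays. In WT the mean was -2.08 on 5 male arrays, and the 1 female array read -2.09. The 3 female arrays of the APP/PS1 vehicle group all lay on slide 2, while its male arrays lay on slides 1 and 2. Mme was called with sex as a covariate but not in male arrays alone. The male means of the 2 groups, from 4 and 5 arrays, lay further apart than the means of all their arrays. In urolithin A-treated APP/PS1 mice the level was 0.52 above vehicle (SE 0.156, interval 0.19 to 0.84), with 6 of 6 arrays above the vehicle mean, and this did not pass the threshold (adjusted p = 0.162). Against WT the urolithin A group differed by -0.04 (interval -0.38 to 0.30, adjusted p = 0.968), which does not show that the 2 groups are alike. In hippocampal tissue, fewer cells of a type and less RNA per cell cannot be told apart.

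The fall of Mme rested on 1 probe. The second probe, A_66_P113268, was well above background on 11 of 19 arrays and differed by 0.03 between vehicle-treated APP/PS1 mice and WT (SE 0.272) and by 0.14 between urolithin A and vehicle (SE 0.272). Its levels were -4.66 to -4.04 in the urolithin A group, -5.35 to -3.58 in the APP/PS1 vehicle group and -5.39 to -3.88 in the WT group. With each probe tested on its own, 4.18% of 33454 probes passed in this comparison, and of the member probes Bace1's alone did, at an adjusted p of 0.038, while the brightest Mme probe had 0.052. The mean of both Mme probes gave -0.26 (adjusted p = 0.4), and background correction by normexp gave -0.19 (adjusted p = 0.193). For urolithin A against APP/PS1 vehicle these 2 settings gave 0.33 and 0.11 for Mme. Over 16 alternative settings the adjusted p of Mme in the genotype comparison ran between 0.0209 and 0.4. On slide 1 alone the difference was -0.71 (adjusted p = 0.144) and on slide 2 alone urolithin A was 0.44 above vehicle (adjusted p = 0.904). The adjusted p without APP/PS1 vehicle arrays 1, 2, 4 and 6 was 0.0939, 0.0762, 0.0614 and 0.062, and without WT arrays 1, 2, 4, 5 and 6 it was 0.0794, 0.111, 0.0844, 0.0927 and 0.099. Without urolithin A arrays 1, 2, 4, 5 and 6, which enter only the estimate of spread, it was 0.0557, 0.0572, 0.0598, 0.0587 and 0.0561, so that Mme was called in 5 of 19 such fits.

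**Figure D3:**
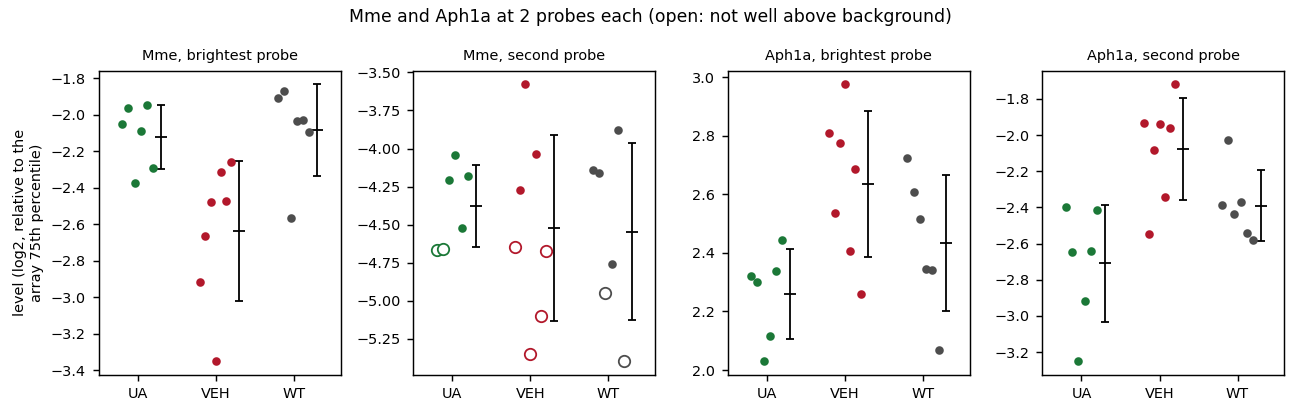
Levels of Mme and Aph1a at the brightest probe and at 1 further probe of each (log2, relative to the array's 75th percentile, y axis) in UA, VEH and WT; points are arrays, open circles are arrays on which the probe was not well above background, and bars show mean and SD. The brightest Mme probe is lowest in VEH while the second overlaps throughout, and both Aph1a probes are lower in UA than in VEH on average.

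Ide encodes insulin-degrading enzyme, a cytosolic and secreted protease of insulin and amyloid-beta. It averaged 0.75 ± 0.24 in urolithin A-treated APP/PS1 mice, 0.92 ± 0.26 in vehicle-treated APP/PS1 mice and 0.96 ± 0.31 in WT littermates (SD, n = 6, 7 and 6). The difference was -0.04 for vehicle-treated APP/PS1 mice against WT (interval -0.35 to 0.27, adjusted p = 0.882) and -0.17 for urolithin A against vehicle (interval -0.48 to 0.14, adjusted p = 0.586). The urolithin A arrays split by slide, with Ide at 0.94 to 1.01 on the 3 arrays of slide 2 and 0.49 to 0.62 on the 3 of slide 3. On slide 2 the urolithin A mean was 0.966 and the APP/PS1 vehicle mean 0.995, and slide 3 held no vehicle array. Ece1 encodes a membrane protease that matures endothelin. It averaged 1.98 ± 0.07 with urolithin A, 1.96 ± 0.14 with vehicle in APP/PS1 mice and 2.06 ± 0.12 in WT (SD, n = 6, 7 and 6). Its difference was -0.10 (adjusted p = 0.424) for vehicle-treated APP/PS1 mice against WT and 0.01 (adjusted p = 0.956) for urolithin A against vehicle.

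**Figure D4:**
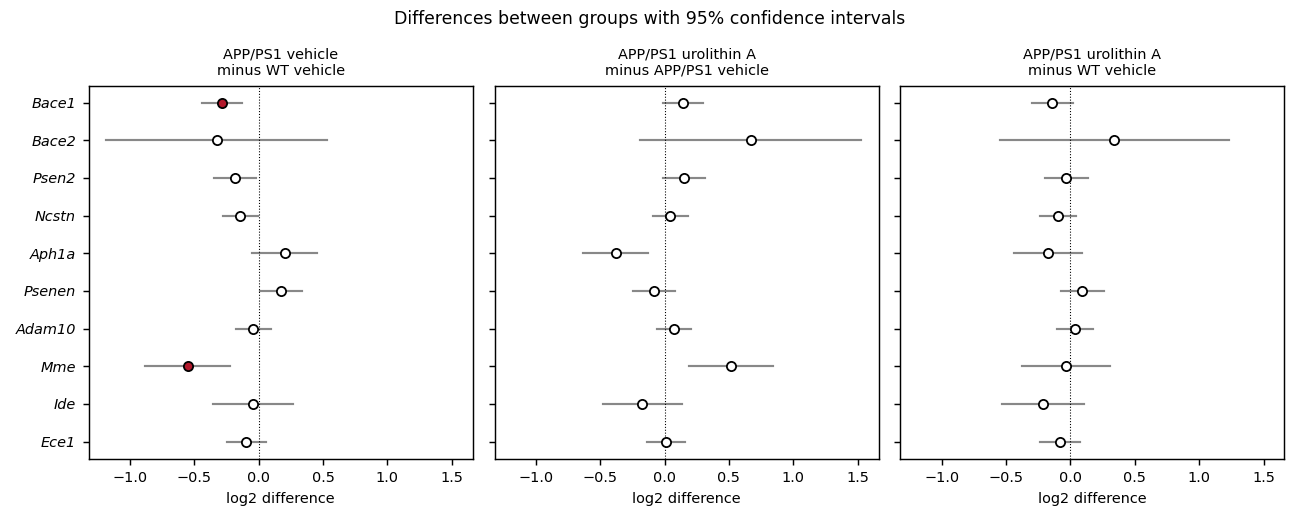
Log2 difference between groups (x axis) with its 95% confidence interval for each member, in 3 comparisons; filled points have an adjusted p under 0.05. Bace1 and Mme in vehicle-treated APP/PS1 mice minus WT are the only filled points, and Bace2 has the widest intervals.

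Genes around the secretases were counted in lists, against the 2.68% of all genes called higher and 2.38% called lower in vehicle-treated APP/PS1 mice against WT. Of 7 measured secretase paralogs and other sheddases, none passed in any comparison. Between vehicle-treated APP/PS1 mice and WT, Adam19, a neuregulin sheddase, differed by -0.26 (adjusted p = 0.0809), Adam17, an inducible alpha-secretase, by 0.34 (adjusted p = 0.113) and Aph1b, the Aph1a paralog, by -0.21 (adjusted p = 0.146). Of 30 secretase regulators and trafficking genes, 1 rose and 3 fell in vehicle-treated APP/PS1 mice against WT. Gsap, the gamma-secretase activating protein, rose by 0.43 (adjusted p = 0.0427). Rtn1 and Rtn3, reticulons, the second of which is known to bind and restrain BACE1, fell by 0.48 (adjusted p = 0.0168) and 0.33 (adjusted p = 0.0276). Nsg1, a neuronal endosomal protein named after its values were seen, fell by 0.35 (adjusted p = 0.0467).

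Among 16 other amyloid-degrading proteases, 2 rose in vehicle-treated APP/PS1 mice against WT and none fell. Ctsd, the lysosomal protease cathepsin D, rose by 1.02 (SE 0.116, adjusted p = 3.86e-05), and Plau, urokinase, rose by 0.55 (SE 0.132, adjusted p = 0.0251). With urolithin A the level of Ctsd was 0.46 below APP/PS1 vehicle (adjusted p = 0.117) and 0.57 above WT (adjusted p = 0.0803). Of 26 secretase substrates, 1 rose and 3 fell in the genotype comparison. Trem2, a microglial receptor, rose by 1.64 (adjusted p = 4.59e-07) in vehicle-treated APP/PS1 mice and was 1.06 above WT with urolithin A (adjusted p = 0.000734). Nrg3, a neuregulin, fell by 0.41 (adjusted p = 0.0129), and Scn2b, a sodium channel subunit named after its values were seen, fell by 0.26 (adjusted p = 0.0499). App fell by 0.40 (adjusted p = 0.0291) at its brightest probe, while the mean of its probes gave 0.06 (adjusted p = 0.775); whether a probe also reads the transgene was not tested. In urolithin A against APP/PS1 vehicle no gene of these lists passed.

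Most of these list calls depended on the settings. With slide as a block, Trem2 (adjusted p = 0.000805) and Ctsd (adjusted p = 0.0155) kept their call in the genotype comparison, while Rtn1, Rtn3, Gsap, Nsg1, Plau, App, Nrg3 and Scn2b had adjusted p between 0.0834 and 0.313 in the same direction. Trem2 with urolithin A against WT differed by 1.09 in that fit, with an adjusted p of 0.902. These groups share no slide, so that fit compares them only through the APP/PS1 vehicle arrays. On slide 1 alone Ctsd differed by 1.01 (adjusted p = 0.111) and Trem2 by 1.59 (adjusted p = 0.00427). When each of the 19 arrays was left out in turn, Trem2, Ctsd and Nrg3 were called in all 19 fits, Rtn1 in 18, Plau in 17, Rtn3 in 14, App in 13, Gsap in 6, Nsg1 in 4 and Scn2b in 3.

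Cell type markers moved in the same arrays. In vehicle-treated APP/PS1 mice against WT, 7 of 10 microglial markers and 3 of 8 astrocyte markers rose, while 0 of 8 neuronal and 0 of 9 interneuron markers passed. Differences were below 0 for 6 of 8 neuronal markers (median -0.26) and for 8 of 9 interneuron markers (median -0.29). At an unadjusted limma p under 0.05 in either direction there were 5 neuronal and 3 interneuron markers. Over all genes tested, 24% met that rule. The mean level of the microglial list ran between 2.25 and 2.70 in the urolithin A group, between 2.74 and 2.96 in the APP/PS1 vehicle group and between 1.43 and 1.75 in the WT group. The neuronal list ran between 5.40 and 5.67 with urolithin A, between 5.27 and 5.67 with vehicle in APP/PS1 mice and between 5.55 and 5.78 in WT. The interneuron list ran between 4.15 and 4.39 with urolithin A, between 3.50 and 4.37 with vehicle in APP/PS1 mice and between 4.34 and 4.50 in WT. The 3.50 was APP/PS1 vehicle array 7 alone, and the next lowest of that group was array 2 at 4.15. The part of the cell type markers in the Bace1 and Mme differences was not tested.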

How the data were processed

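Per the labels' protocols, hippocampal total RNA (200 ng) was labelled with Cy3. Per the file headers, spot values were extracted with the software Agilent Feature Extraction 12.0.3.1, which gave each spot's processed green intensity. The deposited value table is a score: it matched, to within 0.005, the log10 green signal scaled per array to mean and SD, with column medians between -0.28 and -0.17, and served as an alternative. Spots of a probe were averaged as log2, the array's 75th percentile over probes was subtracted, and probes well above background on at least 6 of 19 arrays were kept (33454 of 56605). The brightest probe stood for each gene. All 3 groups were fitted with limma 3.58.1 (R 4.3.3) and called at a Benjamini-Hochberg adjusted p under 0.05 over 25603 genes. The fit was tested on simulated data. The number of arrays limits precision. Replicate numbers were not taken as pairs, since same-numbered arrays did not all deviate together in any comparison. The normexp alternative used the median signal columns. Members and lists were chosen with earlier results of these data known; from each list up to 3 genes of smallest p per comparison are named, others only where stated. Sequences are from RefSeq (GRCm38.p6).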

Additional observations from a re-analysis of the deposited data

Results flagged for a closer look

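In 2 of 30 group and member combinations, 1 array stood apart from its group by Dixon's test, which chance does in about 1 of 20. Bace1 on APP/PS1 vehicle array 5 was 3.06, and the other arrays of that group were at 2.79 or below. Without that array Bace1 differed by -0.33 between vehicle-treated APP/PS1 mice and WT (limma adjusted p = 0.00805). Mme on WT array 3 was -2.56, and the other WT arrays were at -2.09 or above. Without that array Mme differed by -0.65 (limma adjusted p = 0.0175).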

How the results depend on the processing

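The 2 member calls in vehicle-treated APP/PS1 mice against WT kept their direction in all fits run but not always their call. Bace1 was called in 9 of 16 alternatives and 11 of 19 fits without 1 array, with differences of -0.3457 to -0.2501 and -0.3332 to -0.2515. Mme was called in 6 of 16 and 5 of 19, with differences of -0.77 to -0.1884 and -0.6483 to -0.4338. The count of members called was 1 with the percentile over all spots (an alternative chosen after seeing the data), with z-scores, normexp, the mean of a gene's probes, or the percentile over probes well above background on every array. It was 0 with no filter, only the 2 groups compared, slide as a block, within slide, male arrays only and the replicate block, and between 0 and 2 with 1 array left out. In both urolithin A comparisons it was 0 throughout. With every member probe tested, also added after seeing the data, 1 probe was called, 0 with slide as a block, no filter or the replicate block, and 2 with sex as a covariate. Of 8 members with several kept probes, all probes of a gene went in 1 direction for 4 in vehicle-treated APP/PS1 mice against WT. The same held for 5 in urolithin A against APP/PS1 vehicle and 6 in urolithin A against WT.

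Over all genes, calls in vehicle-treated APP/PS1 mice against WT numbered 1296, and 513 with z-scores, 804 in the deposited values, 353 with no filter, 436 with only 2 groups, 76 with slide as a block, 2251 with slide as a random block (consensus correlation -0.045), 22 within slide, 1966 with sex as a covariate, 245 in male arrays and 338 with the replicate block, and 389 to 2262 with 1 array left out. The share of higher calls was 53% and became 64.4%, 62.6% and 40.2% with the percentile over probes well above background on all arrays, z-scores and the deposited values. It was 85.5% with slide as a block, 82.2% with no filter and 79% with the replicate block. With only 2 groups it was 70.4%, in male arrays 69%, and within slide 100% of the 22 calls. Lower shares were 52% with slide as a random block, 48.3% with a filter on all arrays and 47.7% with sex as a covariate. Urolithin A against APP/PS1 vehicle gave 0 calls (3958 genes at an unadjusted p under 0.05), 1621 with normexp and 0 to 10 with 1 array left out. Urolithin A against WT gave 24, 14 with normexp, 41 with a filter on all arrays, 4 and 99 with slide as a fixed and random block, 9 in male arrays, 12 with the replicate block and 16 to 35 with 1 array left out. Within-slide fits were not run for urolithin A against WT, which share no slide.

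Differences that changed sign were, for urolithin A against APP/PS1 vehicle, Psenen at 0.0153 and Mmp9 at -0.0466 with normexp, Ncstn at -0.0469 and Adam10 at -0.0098 with the mean of probes, Aph1b at -0.0182 with slide as a block and within slide, and Ece1 at -7e-04 with the percentile over detected probes, -0.0037 with quantile normalization, -0.0194 with slide as a block and within slide, -0.0236 with the replicate block and -0.0236 to 0.0454 with 1 array left out. In vehicle-treated APP/PS1 mice against WT they were Adam10 at 0.0434, Ide at 0.0546 and App at 0.0594 with the mean of probes, and Ide at 0.0107 with slide as a random block and -0.1223 to 0.0336 with 1 array left out. In urolithin A against WT they were Mme at 0.0661 and App at 0.0186 with the mean of probes, Bace2 at -0.1709, Adam10 at -0.001 and Ins2 at -0.009 with slide as a block, and with 1 array left out Mme at -0.1319 to 0.0153 and Psen2 at -0.0687 to 0.0281. App alone of these was called before the change. The cause was not tested. Deviations of same-numbered arrays correlated between -0.541 and 0.19 in vehicle-treated APP/PS1 mice against WT, with 2 of 6 pairs over 0.1, between -0.284 and 0.39 in urolithin A against APP/PS1 vehicle, with 4 of 6 over 0.1, and between -0.545 and 0.149 in urolithin A against WT, with 2 of 6 over 0.1. No label says that a number marks a shared batch, so the replicate block was kept as an alternative.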

Other observations

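Precursors of peptides that neprilysin, insulin-degrading enzyme or endothelin-converting enzyme 1 cleave were measured for 17 of 20 genes, and none passed the threshold in any comparison. In vehicle-treated APP/PS1 mice against WT, 14 of 17 differences were below 0, with a median of -0.22, against 0.0025 over all genes. Sst, the somatostatin precursor, differed by -0.62 (limma adjusted p = 0.0601) and Cck, the cholecystokinin precursor, by -0.25 (limma adjusted p = 0.0975). Between urolithin A and vehicle in APP/PS1 mice, 14 of 17 differences were above 0, with a median of 0.26, and Nts, the neurotensin precursor, differed by 0.72 (limma adjusted p = 0.236). The interneuron markers share Sst, Cck, Npy and Vip with the precursors, so the 2 lists are not independent. Of the 9 interneuron markers, 8 were below 0 in vehicle-treated APP/PS1 mice against WT (median -0.29). Between urolithin A and vehicle, 7 of 9 were above 0 (median 0.15). The part of the interneuron markers in the precursor values was not tested. The 2 comparisons share the APP/PS1 vehicle arrays.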
